A study of Homo sapiens with 12 samples.

Results

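Cells that had both lost MAPKAPK2 and been exposed to JQ1 were compared with cells that had neither perturbation. The contrast used 6 of the 12 libraries of the series, namely the 3 libraries of MAPKAPK2-knockout A375 cells in 500 nM JQ1 and the 3 of wild-type A375 cells in DMSO, all kept for 48 h. The other 6 libraries, wild-type cells in JQ1 and knockout cells in DMSO, gave the single changes with which the combined change was compared. A375 is an established human melanoma line. The knockout was made with CRISPR/Cas9, and the labels do not say whether the knockout cells were 1 clone or a pool. The cultures without drug are titled untreated, while their treatment field gives DMSO. RNA was depleted of ribosomal RNA before directional library preparation. The labels number the replicates 1 to 3 in each group and do not say that they were separate cultures, so p-values measure the spread between these samples, which may be technical.

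MAPKAPK2 encodes MK2, a kinase that the stress-activated kinase p38 switches on. MK2 phosphorylates RNA-binding proteins such as ZFP36, which otherwise speed the decay of mRNAs with AU-rich elements in their tails, and many inflammatory mRNAs are of this kind. JQ1 is a small molecule that occupies the acetyl-lysine pocket of the BET proteins, chromatin readers that help RNA polymerase II into productive elongation. Inflammatory genes therefore lie under transcriptional control by BET proteins and NF-kB and under control of mRNA decay by p38 and MK2.

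Levels are given as CPM (counts per 1e6 counts of the TMM-scaled library), which compare samples for a gene and not genes with each other. A change is a log2 fold change, with its standard error (SE) where given. A gene was called at a Benjamini-Hochberg adjusted p under 0.05 in edgeR's quasi-likelihood test, adjusted over the 21698 genes tested. The library totals ran from 25316899 to 34594295 estimated counts. Knockout JQ1 replicate 3 stood apart from the other replicates of its group. Its counts differed from theirs by a chi-square of 23.8 and 25.1 per degree of freedom, against 3.21 to 7.05 for the other pairs of replicates in the series, and 14.6% of its counts lay in 4 abundant noncoding RNAs, the highest share. Melanoma markers were present in all groups: SOX10, the neural crest factor, stood between 428 and 442 CPM in wild-type DMSO and between 477 and 687 CPM in knockout JQ1. The pigment genes PMEL, MLANA, TYR and DCT averaged at most 1.12 CPM of the unscaled library in every group, and of 5 epithelial markers CDH1 had no count in any library. KRT14, a basal keratin, averaged 1.96 CPM of the unscaled library in wild-type DMSO and 0.193 in knockout JQ1, and the summed level of the 5 ran from 1.58 to 2.25 and from 0.0790 to 0.293 in those groups.

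The targeted gene was low in both knockout groups. MAPKAPK2, on chromosome 1 from 206684944 to 206734283 in GENCODE release 29 on GRCh38, stood at 88.8, 87.9 and 92.1 CPM in the wild-type DMSO libraries and at 14.9, 12.6 and 15.7 CPM in the knockout JQ1 libraries. Its combined change was -2.63 on the log2 scale (SE 0.08, adjusted p = 2.62e-11). Transcript of an edited gene can persist without making protein, and protein was not measured here. MAPKAPK3, the closest relative of MK2, fell by 0.83 (adjusted p = 2.32e-06), from 27.3 to 29.6 CPM in wild-type DMSO to 15.2 to 17.2 CPM in knockout JQ1. HSPB1, a small heat shock protein that MK2 phosphorylates, fell by 0.63 (adjusted p = 2.40e-04). With the knockout alone neither MAPKAPK3 (0.06) nor HSPB1 (0.26) was called, and with JQ1 alone both were called lower (-0.47 and -0.43). MAPK14, which encodes p38 alpha, had a combined log2 change of 0.10 with a 95% interval from -0.05 to 0.25 and was not called. Of the 12 genes listed for the p38 to MK2 pathway, all tested, 2 rose and 5 fell, with MAPKAPK2 among those that fell; over all tested genes 19.1% rose and 20.6% fell, so the share of members that rose was near the background.

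Of 21698 genes, 4147 were called higher (19.1%) and 4480 lower (20.6%). Among genes whose combined change was at least 1 on the log2 scale, 448 rose and 1686 fell. JQ1 in wild-type cells called 16.9% of genes higher and 16.2% lower, and the knockout in DMSO called 3.47% higher and 4.44% lower; both single contrasts and the combined contrast share the wild-type DMSO libraries. With library totals alone in place of TMM scaling, 2533 genes were higher and 6635 lower, and the median combined change over all genes moved from -0.03 to -0.19, so that small rises in particular are relative to the scaling. Without knockout JQ1 replicate 3, 8488 genes were called in place of 8627.

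Besides GAGE12G, the largest combined rises that met the naming rule were those of LINC01297 (3.45), WNT9A (2.82), ANGPTL4 (2.48), TAC1 (2.48) and TBX10 (2.32). LINC01297, a long noncoding RNA, stood at 30.2, 35.9 and 37.3 CPM in wild-type DMSO and at 491, 381 and 259 CPM in knockout JQ1 (SE 0.19, adjusted p = 3.43e-09). The groups were far apart, with replicate 3 the lowest of the knockout JQ1 libraries. WNT9A, a secreted WNT ligand, went from at most 0.715 CPM to 3.27, 4.71 and 4.78 CPM (adjusted p = 4.32e-07). GAGE12G had 1 of 3 wild-type DMSO libraries above 0 CPM. It belongs to a family of near-identical cancer-testis genes among which reads can be split, so its value is uncertain.

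Among the 6 largest falls that met the naming rule were the secreted proteins HGF and SERPINF1. HGF, the ligand of the MET receptor, stood at 23.9, 25.6 and 24.5 CPM in wild-type DMSO and at 0.419, 0.365 and 0.443 CPM in knockout JQ1, a combined change of -5.89 (SE 0.17, adjusted p = 7.58e-12). SERPINF1, which encodes the secreted antiangiogenic factor PEDF, stood at 14.3, 13.7 and 12.4 CPM against 0.114, 0 and 0.190 CPM. ABCA6, a lipid transporter, fell by 5.88 (adjusted p = 1.07e-08). NLRP2, a NOD-like receptor, held 4.80, 5.24 and 5.17 CPM in wild-type DMSO and was at 0 in 2 of the 3 knockout JQ1 libraries. GAGE1, of the same uncertain family as GAGE12G, had no count in the knockout JQ1 libraries and was at least 69.0-fold lower against a floor of 3 counts per library. KRT81, a hair keratin, was also among the largest falls, and reads of near-identical hair keratins may be split with it.

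The central question of the contrast is whether the combined change equals the sum of the single changes. The sum was taken on the log2 scale, so that 2 single changes add when their fold changes multiply, and the departure is the combined change minus that sum, which is the interaction of genotype and drug. The median absolute departure was 0.17 over all tested genes and 0.13 over the 8627 genes called in the combined contrast. The departure lay within 0.5 for 82.9% of tested genes and for 88.8% of the called ones. It was called for 29 genes, 0.134% of those tested, of which 22 lay below the sum and 7 above it; 1817 genes had an unadjusted p under 0.05. Without knockout JQ1 replicate 3, 88 genes departed, and without wild-type JQ1 replicate 1, 8 did. A gene that was not called is not thereby shown to follow the sum, since the test of the departure carries the error of all 4 groups.

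**Figure D1:**
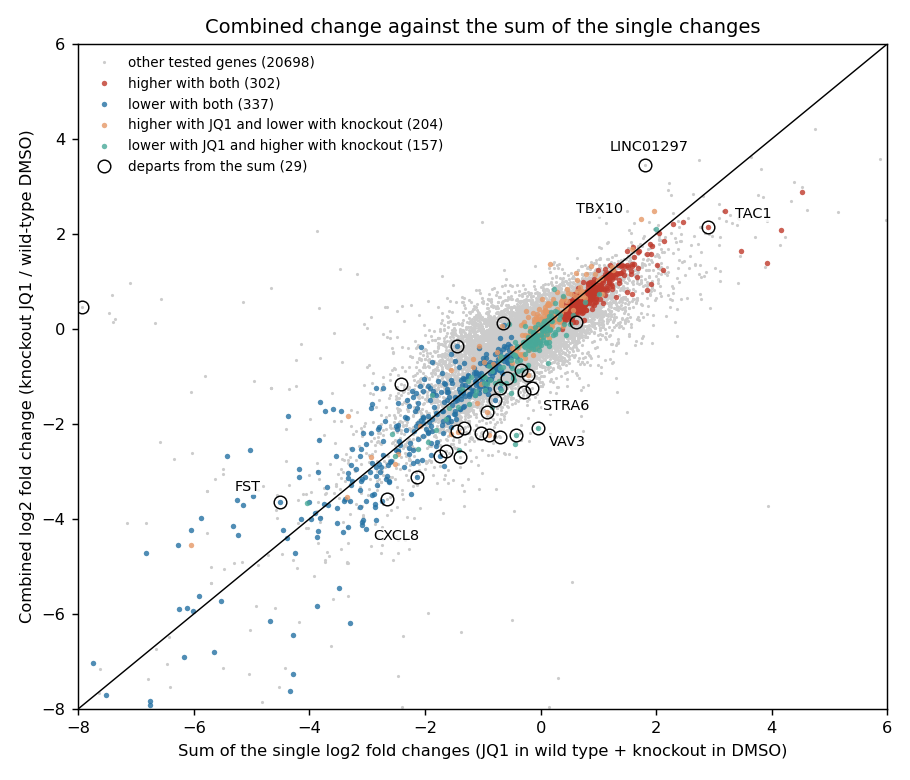
Combined log2 fold change (knockout JQ1 against wild-type DMSO, vertical axis) against the sum of the log2 fold changes of JQ1 in wild type and knockout in DMSO (horizontal axis), 1 point per tested gene, coloured by the direction of both single calls, with rings on the 29 genes that departed from the sum. The line marks equality, and 32 genes lie outside the axes; VAV3 and STRA6 sit well below the line and LINC01297 well above it.

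Genes pushed the same way by both perturbations numbered 639. Of these, 302 were called higher and 337 lower in both single contrasts. In the combined contrast 297 of the 302 were called higher and 331 of the 337 lower, and the combined change went past the larger single change in 262 and 296 of them. Because the singles and the combined contrast share the wild-type DMSO libraries, these counts describe the classes and test nothing. The shared rises were small, with medians of 0.44 for JQ1, 0.33 for the knockout, 0.81 for their sum and 0.68 for the combined change. The shared falls were larger, with medians of -0.96, -0.84, -1.95 and -1.78 in the same order. Without knockout JQ1 replicate 3 the classes held 567 and 516 genes, and with library totals alone 143 and 511.

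The chemokine genes CXCL8 and CXCL1 were among the inflammatory genes lowered by both. Their promoters are shown because both perturbations lowered these genes and because their proximal NF-kB sequence is what NF-kB binding at inflammatory promoters is known to use. The letters come from RefSeq on GRCh38.p14, 5′ to 3′ on the plus strand of chromosome 4, and end before the transcribed region. Capitals mark matches to the AP-1 motif TGACTCA and the NF-kB motif GGANTTTCC.
CXCL8, chr4:73740409-73740504: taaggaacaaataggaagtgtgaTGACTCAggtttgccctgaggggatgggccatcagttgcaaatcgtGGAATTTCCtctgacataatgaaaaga
CXCL1, chr4:73869233-73869328: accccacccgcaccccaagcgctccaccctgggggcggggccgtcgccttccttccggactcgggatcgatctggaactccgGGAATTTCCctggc

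CXCL8 encodes interleukin 8, a neutrophil attractant with an AU-rich mRNA. It stood at 30.0, 29.5 and 33.2 CPM in wild-type DMSO, at 12.8, 13.7 and 14.5 CPM with JQ1 alone, at 8.78, 7.38 and 8.46 CPM with the knockout alone, and at 2.32, 1.99 and 1.27 CPM with both. The 4 groups did not overlap. The combined change was -4.07 (SE 0.15, adjusted p = 7.75e-11), with single changes of -1.18 and -1.91, and the sum of the singles would have left 3.63 CPM. The departure of -0.98 was not called (adjusted p = 0.0972). CXCL1, a chemokine for the same receptor family, went from 8.70, 7.75 and 8.55 CPM to 1.22, 0.852 and 0.538 CPM, a change of -3.28 (SE 0.21, adjusted p = 2.20e-08), and the sum of the singles would have left 0.862 CPM. The measured CXCL1 mean with both was 0.870 CPM, so the fitted sum and the measured level lay side by side.

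The 25 genes listed as inflammatory or early-response mRNAs, many with AU-rich elements, included 21 that could be tested. Of these, 4 were called higher and 10 lower in the combined contrast. Over all tested genes 19.1% were higher and 20.6% lower, so the share of members that rose was near the background. In both single contrasts 7 members were lower, against 1.55% of all tested genes. The 7 were CXCL8, CXCL1, CXCL2, CCL2, TNFAIP3, IL1A and IL1B. TNFAIP3, a ubiquitin-editing brake on NF-kB, fell by 1.98 (adjusted p = 2.26e-07), from 6.27 to 7.06 CPM down to 1.56 to 1.79 CPM. IL1A, an alarm cytokine, fell by 1.86 (adjusted p = 4.22e-07). CCL2 and IL1B were sparse, at most 1.31 and 1.02 CPM in wild-type DMSO, and their combined changes of -4.37 and -4.73, larger than that of CXCL8, rest on a few counts. CXCL3, called lower with JQ1 and not with the knockout, fell by 2.06 (adjusted p = 3.69e-04). Without knockout JQ1 replicate 3, 3 were higher and 11 lower. Other members rose: FOS, an AP-1 subunit, changed by 1.13 (adjusted p = 1.38e-07), IL11 by 1.47 and VEGFA by 0.51. MYC had a combined change of 0.22 that was not called. The list's median combined change was -0.16, against -0.03 over all genes, and its median departure was 0.04.

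ICAM1, the adhesion molecule that leukocytes bind and a textbook NF-kB target, was lower with both and went further than the sum; it was chosen after its values were seen. It stood at 53.1, 55.4 and 55.0 CPM in wild-type DMSO, at 21.2 to 25.4 CPM with JQ1 and at 34.5 to 40.2 CPM with the knockout. With both it stood at 7.58, 8.20 and 9.75 CPM, below the 16.3 CPM of the sum (departure -0.93, SE 0.13, adjusted p = 0.0149). A RefSeq promoter was found for 224 of the 337 genes lower with both. The NF-kB motif GGANTTTCC, read on both strands, lay within 250 bases before the start in 7 of the 224 (3.12%), against 1.44% of 11947 promoters of tested genes and 1.47% of all promoters in the RefSeq table. The 7 were CXCL1, CXCL2, CXCL8, ICAM1, NMU, TNFAIP3 and TRAF5. The share was 1.21% among genes higher with both, 3.57% among genes raised by JQ1 and lowered by the knockout, and 0 among the 114 of the reverse class. The AP-1 motif TGACTCA was in 2.68% of the promoters of genes lower with both and in 2.93% of those of tested genes. A match is a description of the letters and shows no binding.

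Other genes lowered by both encode extracellular proteins. A2M, a secreted protease trap, stood at 81.5, 67.8 and 82.1 CPM in wild-type DMSO, at 19.2 to 21.2 CPM with JQ1, at 18.5 to 21.7 CPM with the knockout and at 4.38, 4.50 and 3.29 CPM with both. The combined change was -4.26 (SE 0.12, adjusted p = 7.58e-12), and the sum would have left 5.34 CPM. Single changes of similar size, -1.92 and -1.93, thus combined to roughly their sum in A2M. PCSK1, a prohormone convertase, fell by 3.99 with single changes of -2.27 and -1.87. C3, the central complement protein, fell by 4.24 (adjusted p = 1.01e-08), and ACP5, a secreted acid phosphatase, by 4.16. FN1, which encodes fibronectin, fell by 1.89, from 76.0 to 81.2 CPM down to 18.8 to 23.4 CPM, with a departure of -0.02. Of the 337 genes lower with both, 34 lay on chromosome 1 beyond MAPKAPK2 towards the end of the long arm. That stretch, counted with MAPKAPK2 itself, held 302 of the 21698 tested genes (1.39%). In it 155 of the 302 were lower in the combined contrast (51.3%, against 20.6% of all tested genes) and 11 higher (3.64%, against 19.1%).

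Genes raised by both were fewer at high fold. TAC1, the precursor of the neuropeptide substance P, went from 1.40, 1.98 and 2.17 CPM to 11.5, 10.2 and 9.47 CPM (combined rise 2.48, SE 0.15). The knockout alone brought it to 8.89 to 9.94 CPM, so the libraries with both perturbations overlapped those of the knockout alone. PDGFD, a growth factor for PDGF receptors, stood at 3.28, 3.29 and 3.19 CPM without either, at 5.79 to 5.95 CPM with JQ1, at 6.60 to 7.21 CPM with the knockout and at 10.4, 12 and 10.2 CPM with both. Here the combined level lay above both singles and near the 12.4 CPM of the sum. ROPN1L, a protein of sperm flagella, rose by 2.26, with single rises of 1.49 and 0.97. MEGF10, an engulfment receptor, rose by 2.15 to 18.9, 21.7 and 21.5 CPM, below the 35.1 CPM of the sum (departure -0.76, adjusted p = 0.0208). CENPT and the mitochondrial transfer RNA MT-TS1 also met the rule, with combined rises of 0.82 and 1.63.

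**Figure D2:**
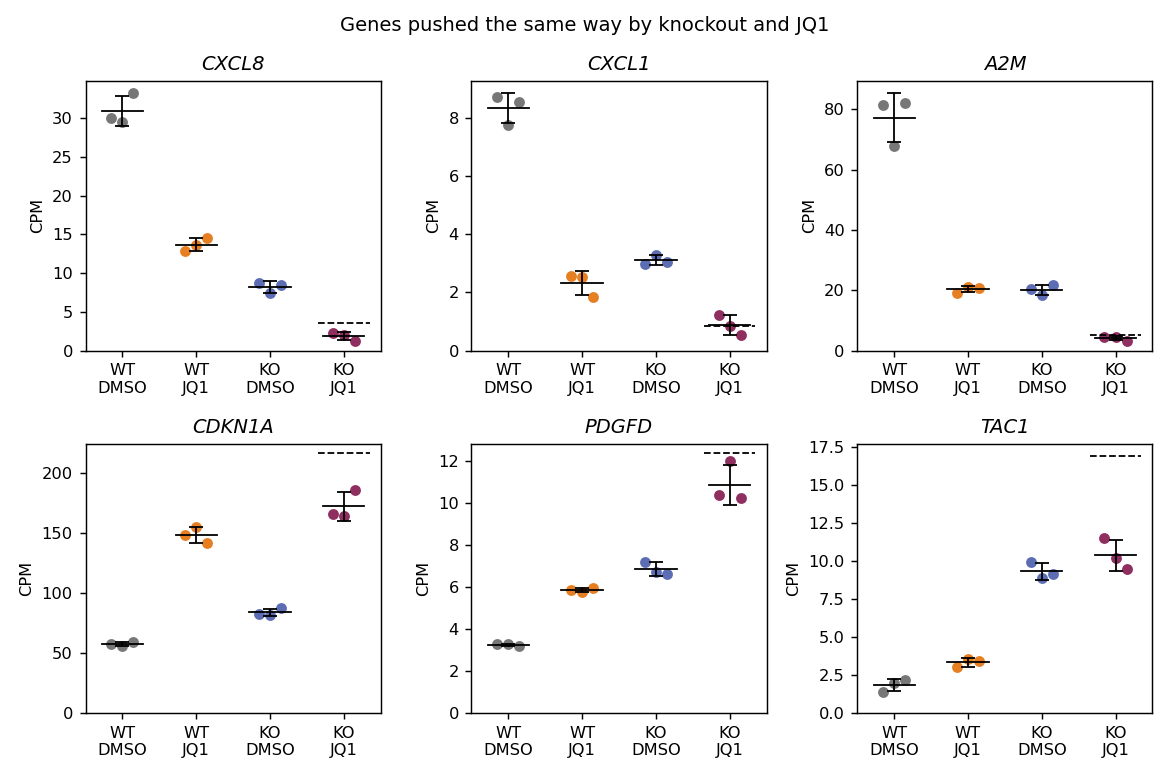
CPM in each library (points), with group mean and SD (n = 3), for CXCL8, CXCL1, A2M, CDKN1A, PDGFD and TAC1 in the 4 groups; the dashed line is the level that the sum of the single log2 changes gives. In A2M, CXCL1 and PDGFD the combined libraries lie at or close to the dashed line, and in TAC1 and CDKN1A they lie under it.

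Among 20 listed p53 target genes, 11 rose and 2 fell in the combined contrast, against 19.1% of all tested genes called higher, and 4 were higher with each perturbation alone. CDKN1A, the cell-cycle inhibitor p21, stood at 57.7, 55.8 and 59.5 CPM in wild-type DMSO, at 142 to 155 CPM with JQ1, at 82.0 to 87.8 CPM with the knockout and at 166, 165 and 186 CPM with both. Its combined rise was 1.58 (SE 0.06, adjusted p = 1.50e-10), and the sum would have given 217 CPM. TP53I3, RRM2B and SESN1, which act in redox metabolism, nucleotide supply and growth restraint, were the other members higher with both, with combined rises of 1.09, 0.58 and 0.57. MDM2, the ubiquitin ligase of p53, fell by 0.36, and GDF15, a stress cytokine, went from 2.12 to 2.38 CPM to no count in 2 of the 3 knockout JQ1 libraries. With library totals alone 8 members rose and 5 fell, and without knockout JQ1 replicate 3, 9 rose and 2 fell.

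Genes pushed in opposite directions by the singles numbered 361. JQ1 raised and the knockout lowered 204 of them, and JQ1 lowered and the knockout raised 157. In the first class the combined contrast called 77 higher and 45 lower and left 82 uncalled, and the median single changes of 0.56 and -0.49 stood beside a median combined change of 0.07. For 101 of the 204, the 95% interval of the combined change lay within 0.5 of 0 on the log2 scale, so that a change larger than that was outside the interval. In the second class 13 were called higher, 90 lower and 54 not. The medians were -0.67 for JQ1, 0.48 for the knockout and -0.30 combined, and the interval lay within 0.5 of 0 for 62 of the 157. Over all tested genes the interval lay within 0.5 of 0 for 6496 of 21698. Members had to be called in both singles, so these shares describe the classes and test nothing. The first class held 32 genes from MAPKAPK2 onwards on chromosome 1, MAPKAPK2 itself among them, and the second none. Without knockout JQ1 replicate 3 the classes held 311 and 281 genes.

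MAP1B, a microtubule-binding protein of neurons, showed a near return to the starting level. It stood at 23.4, 24.4 and 20.8 CPM in wild-type DMSO, at 61.7 to 63.0 CPM with JQ1, at 7.21 to 8.62 CPM with the knockout and at 15.7, 17.6 and 18.6 CPM with both. The combined change of -0.40 (SE 0.09, adjusted p = 0.00165) was smaller than either single change (1.45 and -1.52), and the groups without and with both perturbations did not overlap. NPTX2, a synaptic pentraxin, went from 2.86 to 3.66 CPM to 12.3 to 13.6 CPM with JQ1, to 0.446 to 0.481 CPM with the knockout, and to 1.71, 2.07 and 3.01 CPM with both. Its combined call (adjusted p = 0.0444) was lost under 14 of 20 alternatives. THBS1, which encodes the matrix protein thrombospondin 1, had single changes of 0.87 and -0.79 and a combined rise of 0.36. SLC7A5, an amino acid transporter, had single changes of 0.59 and -0.58 and a combined change of 0.21 that was not called (adjusted p = 0.0940); its libraries with both perturbations ran from 232 to 303 CPM against 217 to 234 CPM.

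Opposition did not always end near the start. ANGPTL4, a secreted inhibitor of lipoprotein lipase, went from 3.13, 3.82 and 3.27 CPM to 31.1 to 34.4 CPM with JQ1, to 0.994 to 1.61 CPM with the knockout and to 16.8, 16.8 and 23.3 CPM with both. Its combined rise was 2.48 (SE 0.15, adjusted p = 1.32e-08), on the side of JQ1. TBX10, a T-box transcription factor, likewise rose by 2.32, from single changes of 3.77 and -2.03. VAT1L, a relative of a synaptic vesicle protein, stayed on the side of the knockout. It stood at 30.6, 28 and 31.0 CPM in wild-type DMSO, at 81.9 to 90.0 CPM with JQ1, at 1.13 to 1.57 CPM with the knockout and at 4.53, 4.26 and 5.03 CPM with both. LINC01419 had single changes of 1.84 and -2.06 and a combined change of -0.96, below its sum (departure -0.74, adjusted p = 0.0230). TGFBI, a matrix protein induced by TGF-beta, stood at 52.6 to 57.6 CPM in wild-type DMSO and at 15, 18.2 and 16.9 CPM with both, under the 29.4 CPM of the sum (departure -0.81, adjusted p = 0.0208).

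In the reverse class, TRIM51, of a ubiquitin ligase family, and PAPPA, a protease that cleaves IGF-binding proteins, ended close to the start. TRIM51 stood at 2.06, 2.66 and 2.64 CPM in wild-type DMSO, at 0.444 to 0.705 CPM with JQ1, at 12.6 to 14.1 CPM with the knockout and at 2.78, 3.85 and 2.82 CPM with both. PAPPA stood at 4.50, 4.50 and 5.28 CPM and at 3.85, 4.14 and 4.02 CPM with both, between 1.75 to 2.08 CPM for JQ1 and 10.2 to 11.4 CPM for the knockout. The combined changes of 0.36 (adjusted p = 0.105) and -0.25 (adjusted p = 0.103) were not called, although for both genes the libraries of these groups did not overlap. PTCHD4, a patched-domain protein, had a combined change of -0.52, whose call (adjusted p = 0.0289) was lost under 5 of 20 alternatives. The noncoding transcript AC116565.2 rose by 2.11, on the side of the knockout. The interferon-stimulated response element motif (ISRE) was read on both strands, as other motifs were in every class. It lay before the start of 11 of the 114 genes of this class with a RefSeq promoter (9.65%). The share was 2.44% for promoters of tested genes and 3.07% for all promoters in the table. It was 2.82% among genes higher with both, 2.23% among genes lower with both and 0.714% among genes raised by JQ1 and lowered by the knockout. The 11 were C14orf93, CFAP97, EPHA4, FCRLA, GBP1, ISG20, LINC02475, MYD88, PCDHGA1, PCDHGB2 and SNRPB2.

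**Figure D3:**
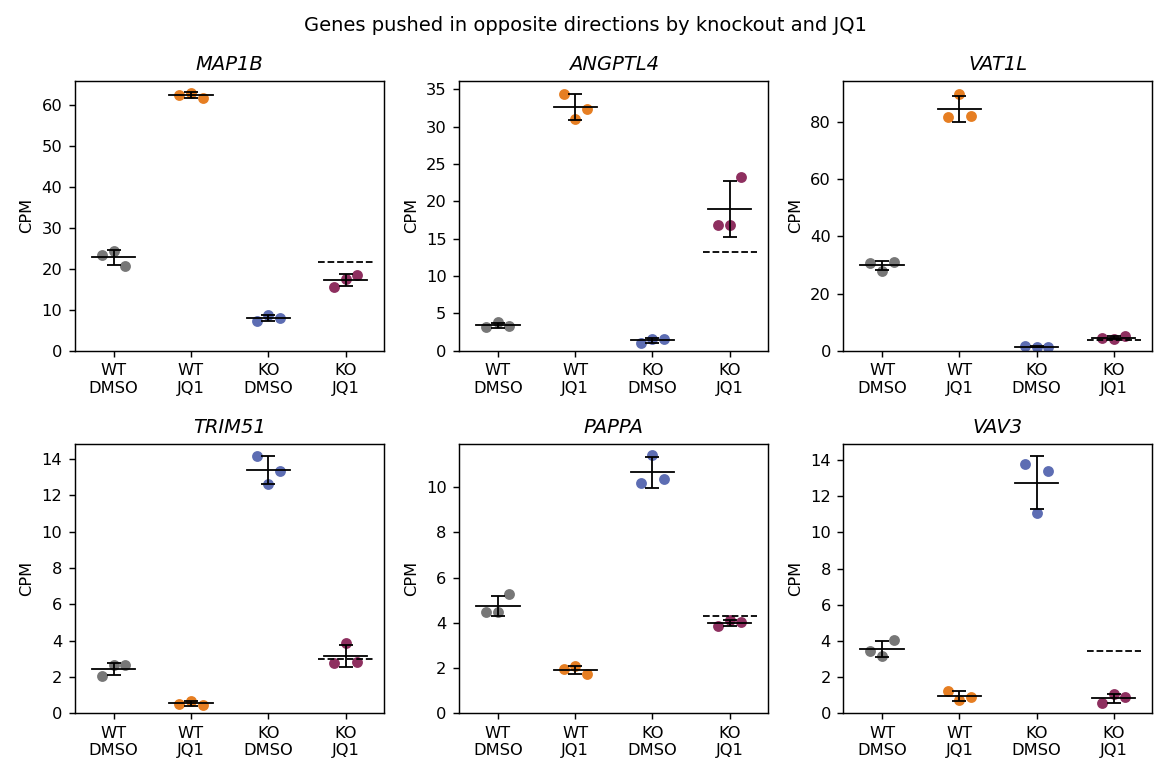
CPM in each library (points), with group mean and SD (n = 3), for 3 genes raised by JQ1 and lowered by the knockout (top) and 3 with the reverse pattern (bottom); the dashed line is the level that the sum of the single log2 changes gives. MAP1B, TRIM51 and PAPPA return towards the wild-type DMSO level with both perturbations, ANGPTL4 stays high, VAT1L stays low and VAV3 falls under the dashed line.

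VAV3 and PCDH15 belonged to the reverse class and had the most negative departures of all called genes. VAV3, an exchange factor that activates RAC GTPases, stood at 3.46, 3.19 and 4.07 CPM in wild-type DMSO, at 0.742 to 1.26 CPM with JQ1, at 11.1 to 13.8 CPM with the knockout and at 0.571, 1.06 and 0.886 CPM with both. The single changes of -1.87 and 1.83 would have summed to the starting level, yet the combined change was -2.09 (departure -2.06, SE 0.31, adjusted p = 0.0182). The libraries with both perturbations overlapped those with JQ1 alone. PCDH15, a protocadherin of hair-cell tip links, behaved alike in these values, with 6.77, 6.73 and 4.51 CPM at the start, 13.6 to 15.6 CPM with the knockout and 1.33, 1.14 and 1.33 CPM with both (departure -1.81, adjusted p = 0.00838). In knockout cells JQ1 changed VAV3 by -3.92 and PCDH15 by -3.52 on the log2 scale.

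STRA6 and ANGPTL2 were called in neither single contrast and lower with both. STRA6, the cell-surface receptor for retinol-binding protein, stood at 57.4, 55.7 and 58.3 CPM in wild-type DMSO, at 48.1 to 62.3 CPM with JQ1, at 48.8 to 56.2 CPM with the knockout and at 21.4, 25.4 and 25 CPM with both. The first 3 groups overlapped and the fourth lay under all of them (departure -1.11, SE 0.13, adjusted p = 0.00838). ANGPTL2, a secreted angiopoietin-like protein, stood at 17.3 to 18.8 CPM at the start, 13.6 to 17.3 CPM with JQ1, 16.5 to 19.3 CPM with the knockout and 6.97, 6.45 and 8.23 CPM with both (departure -1.03, adjusted p = 0.0208). DKK3, a secreted protein of the dickkopf family, and IL17RD, a receptor that restrains growth factor signalling, were likewise called only in the combined contrast of the 3, with combined changes of -1.07 and -1.41, and their departures of -0.68 and -0.85 were not called (adjusted p = 0.0742 and 0.111). In all, 2201 genes (10.1% of those tested) were called in the combined contrast and in neither single one, 960 of them higher. The departure was called for only 2 of the 2201, STRA6 and ANGPTL2, and its median over the 2201 was -0.05. Of all tested genes, 13793 were called in neither single contrast.

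SLC7A11, the cystine importer, was not called with the knockout alone. It stood at 73.6, 75.4 and 68.2 CPM at the start, at 22.7 to 24.2 CPM with JQ1, at 70.4 to 73.6 CPM with the knockout and at 12.5, 14.7 and 9.62 CPM with both (departure -0.93, adjusted p = 0.0208). CLCN4, a chloride and proton exchanger of endosomes, rose with JQ1 in wild-type cells by 0.41, fell by 1.31 with the knockout and fell by 2.23 with both (departure -1.33, adjusted p = 0.00838). MFAP2, a microfibril protein, went from 26.2 to 27.8 CPM to 3.57 to 4.72 CPM against 10.2 CPM for the sum (departure -1.30, adjusted p = 0.00838). GAS6-AS1, antisense to the GAS6 gene, had a departure of -1.58, and reads of a gene and its antisense partner cannot be told apart where counting ignored strand.

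Positive departures were called for 7 genes. Of all 29 departing genes, negative ones included, FST, STRA6, KRT80, MFAP2, PCDH15 and CLCN4 kept their call whichever single library was left out. Every other departure call was lost without at least 1 library, with adjusted p up to 0.172 over the alternatives run. FST, the secreted activin antagonist follistatin, fell from 263, 250 and 262 CPM to 16.4 to 20.5 CPM with JQ1 and to 156 to 166 CPM with the knockout, and stood at 20.7, 19.6 and 21.5 CPM with both, above the 11.4 CPM of the sum (departure 0.86, SE 0.10, adjusted p = 0.00838). With the knockout added to JQ1, FST was thus about where JQ1 alone left it. TMEM178B, a membrane protein, stood at 4.81 to 5.51 CPM at the start, at 1.02 to 1.25 CPM with the knockout and at 2.55, 2.07 and 2.37 CPM with both, against 0.982 CPM for the sum (departure 1.24, adjusted p = 0.0239). LINC01297 was described above, with 121 CPM expected from the sum (departure 1.64, adjusted p = 0.0191). AC245060.5 stood at 51.7 to 63.2 CPM at the start and at 40.6 to 46.2 CPM with both, against 20.4 CPM for the sum (departure 1.10, adjusted p = 0.0208). COX6C, a subunit of cytochrome c oxidase, stood at 12.1 to 13.6 CPM and at 13.3 to 14.6 CPM with both, after 9.54 to 10.2 CPM with JQ1 alone (departure 0.76, adjusted p = 0.0395).

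**Figure D4:**
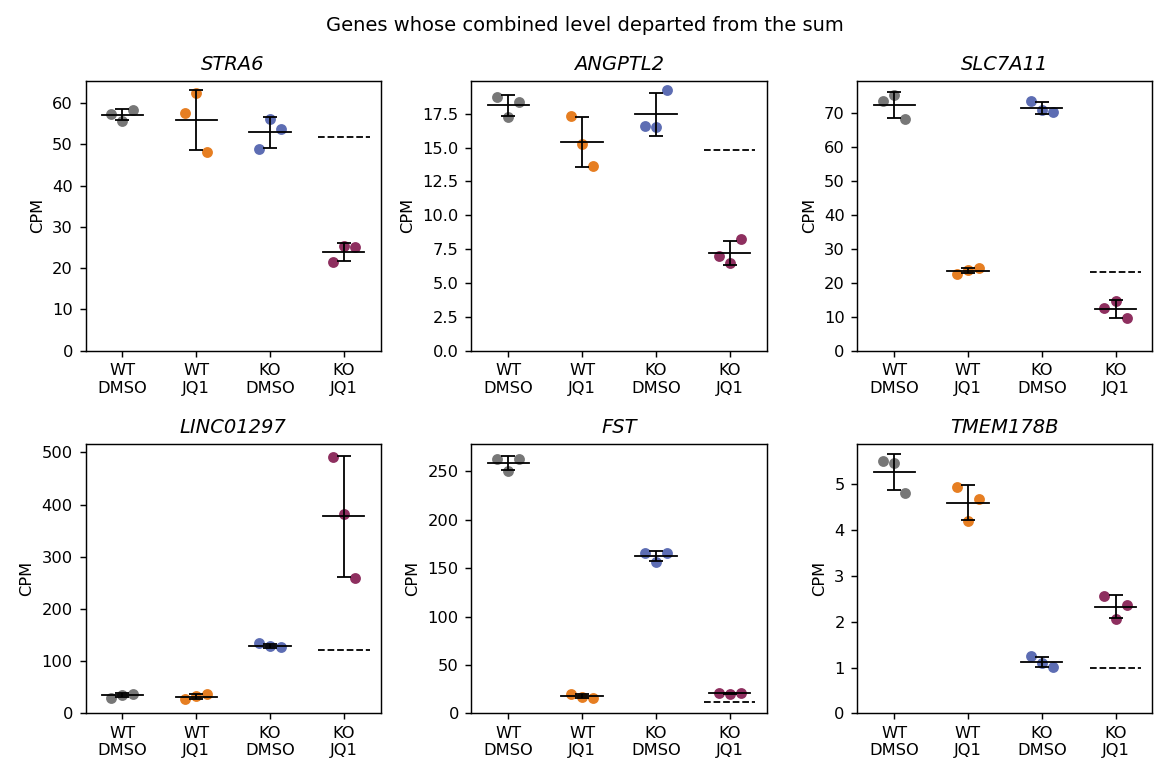
CPM in each library (points), with group mean and SD (n = 3), for 6 genes whose combined level departed from the sum of the single log2 changes (dashed line). STRA6, ANGPTL2 and SLC7A11 lie under the line, and LINC01297, FST and TMEM178B above it.

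The interferon-stimulated genes had the lowest median of the 17 lists described. Of 27 genes, 23 were tested, 4 rose and 16 fell in the combined contrast, against 20.6% of all tested genes called lower. Their median was -1.26, after -0.83 with JQ1 and -0.03 with the knockout. OAS2, a sensor of double-stranded RNA, went from 10.9, 10.3 and 11.8 CPM to 0.876, 0.933 and 0.855 CPM, a change of -3.63 (SE 0.13, adjusted p = 4.73e-11). OAS3, a sensor of the same family, had a change of -1.20, BST2, which tethers budding virions, -3.01, and IFITM1, which blocks viral entry, -2.91. The sign of the departure was negative in 22 of the 23 tested, with a median of -0.27, while none was called. Over all 21698 tested genes the departure was positive in 10607, with a median of -0.006. Members of this list can move together, so the 22 signs are not separate observations. IRF7, a transcription factor of the interferon response, and IFI6 were among those that rose, by 1.35 and 0.27. The common sign was noticed after the values were seen. Summed levels of leukocyte markers ran from 3.90 to 4.03 CPM of the unscaled library in wild-type DMSO and from 1.98 to 2.26 in knockout JQ1, those of fibroblast markers from 12.4 to 13.9 and from 7.5 to 9.32, and those of endothelial markers from 2.07 to 2.50 and from 0.790 to 1.54; their part in these results was not tested.

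Of 22 mitotic genes, 2 rose and 14 fell, where 19.1% of all tested genes rose and 20.6% fell, with a median of -0.36 after -0.17 with JQ1 and -0.12 with the knockout. CENPF, a kinetochore protein, fell by 0.91, from 842 to 888 CPM down to 407 to 494 CPM, and was the single member lower with both. It lies on chromosome 1 beyond MAPKAPK2, in the stretch described above where many genes were lower. Without that stretch 21 mitotic genes were tested, of which 2 rose and 13 fell. MKI67, the proliferation marker Ki-67, fell by 0.53 (adjusted p = 9.44e-06). Of 28 DNA replication genes, 12 rose and 5 fell, the falls near that background, with PCNA, the sliding clamp, at 0.53 and MCM4, a helicase subunit, at -0.51; with library totals alone 5 rose and 10 fell, so the direction of this list turned with the scaling. The same held for ribosome biogenesis, where 7 of 23 rose and 3 fell beside the same 19.1% and 20.6% of all genes, BOP1 and RRP9 leading with 0.67 and 0.58, against 2 and 8 with library totals.

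Of 40 transcription cycle genes, 15 rose and 1 fell, against 19.1% of all tested genes called higher, but 8 rose and 7 fell with library totals alone. HEXIM1, an inhibitor of the elongation kinase P-TEFb and a usual readout of BET inhibition, stood at 92.5, 89.1 and 92.8 CPM in wild-type DMSO and at 153, 147 and 174 CPM with both. Its combined rise of 0.79 (SE 0.06, adjusted p = 2.43e-07) matched the 0.79 of JQ1 alone to 2 decimals. H1F0, a replacement linker histone, rose by 1.19 after 1.17 with JQ1. MED12, a subunit of the Mediator kinase module, fell by 0.49. The rise of BRD2, a BET protein, by 0.20 (adjusted p = 0.0440) was lost under 13 of 20 alternatives. Of 9 listed BET inhibitor-induced genes, 3 rose and 1 fell, beside 19.1% and 20.6% of all tested genes. With library totals alone 3 rose and 5 fell, where 2533 of all 21698 tested genes were higher and 6635 lower.

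Of 10 genes that report output of the ERK pathway, 6 rose and 2 fell, and 3 rose and 2 fell with library totals alone. Over all tested genes 19.1% rose and 20.6% fell, so the falls were at the background. CCND1, which encodes cyclin D1, stood at 320, 350 and 347 CPM at the start, at 544 to 560 CPM with JQ1, at 260 to 278 CPM with the knockout and at 530, 520 and 568 CPM with both. DUSP4, an ERK phosphatase, had single changes of 0.54 and -0.41 and a combined rise of 0.53. For both genes, pushed in opposite directions by the singles, the combined level was that of JQ1, with departures of 0.28 and 0.40 that were not called (adjusted p = 0.243 and 0.203). DUSP6, another ERK phosphatase, was raised by each and rose by 0.50. Of the 10, 3 were in the class raised by JQ1 and lowered by the knockout.

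The lists of melanoma state and matrix had members called in both directions, to be read beside the 19.1% of all tested genes that rose and the 20.6% that fell. Of 19 genes of the undifferentiated state, 8 rose and 7 fell. TNC, the matrix protein tenascin C, rose by 1.62, from 1166 to 1203 CPM up to 3372, 3444 and 4100 CPM, and AXL, a receptor kinase, by 0.69, whereas TGFBI had a change of -1.74 and NGFR, the low-affinity neurotrophin receptor, one of -2.19. Of 19 melanocyte genes, 15 were tested, 4 rose and 6 fell; MITF, the lineage's master factor, fell by 0.50 after -0.58 with the knockout, RAB27A, which carries pigment granules, fell by 1.10 and S100B rose by 0.73. Of 30 matrix and integrin genes, 28 were tested, 11 rose and 10 fell, and 7 rose and 14 fell with library totals alone. FN1 and TIMP3, a metalloprotease inhibitor, were among those lower with both, with combined changes of -1.89 and -1.27.

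The metabolic and survival lists are likewise set beside 19.1% of all tested genes higher and 20.6% lower. Of 22 lysosome and autophagy genes, 13 rose and 2 fell, CTSL, a cysteine protease, among the first at 0.89, and with library totals alone 8 rose and 3 fell. LAMP2, a lysosomal membrane protein, stood at 69.7, 69.6 and 73.9 CPM at the start and at 9.86 to 10.4 CPM with the knockout, and at 10.3, 9.70 and 9.78 CPM with both, a change of -2.84. Of 20 tested cholesterol genes, 2 rose and 10 fell, with SREBF2, the master factor, at -0.61. Of 18 ATF4 response genes, 5 rose and 4 fell, shares near those of all genes, and 4 rose and 9 fell with library totals alone. DDIT4, an inhibitor of mTORC1, rose by 0.99 and SLC7A11 fell by 2.57. Of 15 BCL2 family genes, 4 rose and 4 fell, again near those of all genes, and 4 rose and 8 fell with library totals alone, with the prosurvival MCL1 up by 0.50 and the proapoptotic BCL2L11 up by 0.60.

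**Figure D5:**
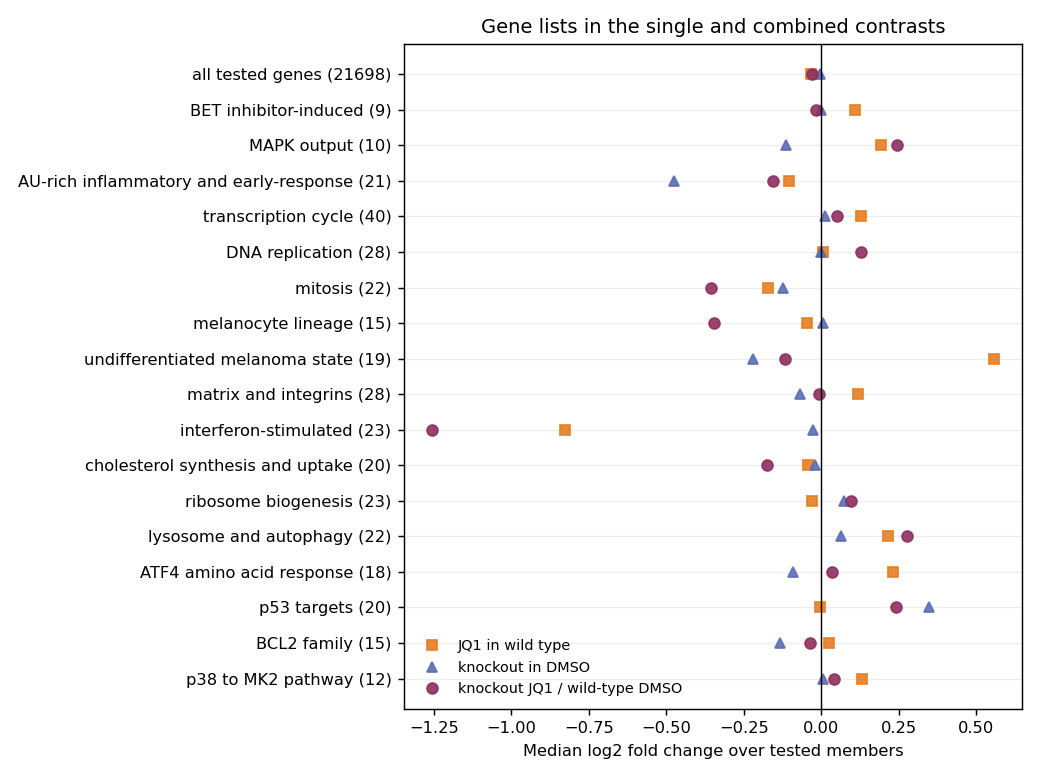
Median log2 fold change over the tested members of each of 17 gene lists and over all tested genes, for JQ1 in wild type (squares), the knockout in DMSO (triangles) and both against wild-type DMSO (circles); the number of tested members stands beside each name. The interferon-stimulated list lies lowest in the combined contrast, at -1.26.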

How the data were processed

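Estimated counts for 56609 gene symbols and, separately, a normalized signal were deposited by the authors. Kallisto, DESeq2, Trim Galore, cutadapt, FastQC, MultiQC and the build GRCh38.p10 are named per the submitters' processing notes, with no role; the annotation and the strand setting are not given in the sources used here. Testing had been planned for raw counts, so the estimated counts were rounded first. Genes were filtered with edgeR's filterByExpr over the 4 groups, libraries were scaled with TMM, and all 12 libraries entered a single quasi-likelihood fit (edgeR 4.0.16, R 4.3.3), which was tested on simulated data. Contrasts were knockout JQ1 against wild-type DMSO, each single change, and the combined change minus their sum. Each SE is the absolute log2 change over the square root of the F statistic, with 95% intervals from it, and fitted changes used a prior count of 0.125.

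The members and lists were chosen with earlier results of these data known. The naming rule required a group mean of 5 CPM or more, and took 8 fixed genes, the 6 largest rises and falls without overlap, the 6 genes of each class with the largest smaller single change, the 4 most positive and 4 most negative called departures, 2 genes per list, and 4 genes called only with both. CXCL2, CXCL3, CCL2, IL1A, IL1B, TNFAIP3, FOS, IL11, VEGFA, ICAM1, BST2, IFITM1, IRF7, IFI6, GDF15, MDM2, RRM2B, SESN1, SOX10, MITF, DUSP4, THBS1, AXL, NGFR, SLC7A5, MFAP2, COX6C and the further departing genes were named after their values were seen. Some genes that the rule names are not reported here.

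Alternatives were other scalings, filters, tests and thresholds, each library left out, a replicate block, DESeq2 1.42.0, and limma 3.58.1 on log2 of the authors' deposited signal plus 1. Gene positions came from GENCODE release 29 by symbol, and promoters, 250 bases before the start, from RefSeq on GRCh38.p14.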

Additional observations from a re-analysis of the deposited data

Results flagged for a closer look

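The combined change differed from the sum of the single changes in 29 genes, by edgeR's test of the difference between the JQ1 responses of the genotypes. All 29 are given here with the departure on the log2 scale, and no cause was tested. Below the sum lay VAV3 (-2.06), PCDH15 (-1.81), GAS6-AS1 (-1.58), CLCN4 (-1.33), MFAP2 (-1.30), ANKRD30A (-1.16), STRA6 (-1.11) and ANGPTL2 (-1.03). KRT80 (-0.98), SLC7A11 (-0.93), ICAM1 (-0.93), C1R (-0.93), TGFBI (-0.81), ADCY7 (-0.76), MEGF10 (-0.76) and LINC01419 (-0.74) lay below it as well. So did ABCC2 (-0.71), ADAMTS12 (-0.70), AK3 (-0.55), AMACR (-0.52), SPATS2L (-0.46) and SVIL (-0.46). Above the sum lay LINC01297 (1.64), TMEM178B (1.24), AC245060.5 (1.10), FST (0.86) and COX6C (0.76). The fitted departures of AC093525.2 (8.40) and AC130304.1 (13.6) depend on the prior count, because both had no count in any wild-type JQ1 library. AC130304.1 had at most 1.90 CPM in any library. Groups of 3 are too small for a check for outlying samples.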

How the results depend on the processing

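The main counts were 8627 genes in the combined contrast, 302 higher and 337 lower with both singles, 204 raised by JQ1 and lowered by the knockout, 157 with the reverse, and 29 departing from the sum. No named change that was called turned its direction. Values that were not called could turn, as did the combined change of MAPK14, which ran from -0.06 to 0.14 over the alternatives. Library totals alone gave 143 higher and 511 lower with both. Testing without a low-count filter gave 236 departing genes. DESeq2 gave 484 higher with both and 141 departing. Limma on the authors' normalized values gave 212 lower with both. An adjusted p of 0.01 gave 104, 155, 106 and 79 genes in the 4 classes and 6 departing. Average effects over both genotypes and both treatments, which do not share an error through the control, gave 611, 751, 425 and 350. Requiring an absolute change of 0.5 in both singles left 46 higher with both, 74 raised by JQ1 and lowered by the knockout, and 66 with the reverse. Leaving out 1 library at a time gave 7328 to 8616 genes in the combined contrast, 150 to 567 higher with both, 199 to 516 lower with both, 121 to 311 and 90 to 281 in the opposite classes, and 8 to 88 departing. The highest class and departure counts came without knockout JQ1 replicate 3. Lowest were those without a wild-type DMSO library for the classes and without wild-type JQ1 replicate 1 for the departures. A fit of the 6 libraries compared alone called 7526.

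Same-numbered samples did not deviate together: their correlation over genes ran from -0.11 to 0.08 in 18 pairs. No pairing by number was thus seen, but this cannot show that the samples were unpaired, which the labels do not say. With the replicate block the counts were 8285, 248, 287, 178, 124 and 21. Without MAPKAPK2 and the genes beyond it on chromosome 1 they were 8461, 302, 303, 172, 157 and 29.

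Departure calls were unstable. Of 19 alternatives, 14 ended that of C1R, 13 that of ABCC2, 12 those of AK3 and AMACR, 11 those of SPATS2L and LINC01419, 10 that of COX6C, and 9 those of SVIL, MEGF10, SLC7A11 and TMEM178B. AC130304.1 lost its call under 11 of 17. FST, STRA6, KRT80 and MFAP2 kept theirs in all alternatives run, and CLCN4 and PCDH15 lost theirs only under limma. Depth limits the genes with few counts, such as CCL2, IL1B and NLRP2.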

Other observations

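On a linear scale the expected level with both perturbations is the wild-type DMSO level plus both single differences in CPM. It differs from the log2 sum for genes that both singles change, in the same or in opposite directions. Closeness to the sum, as given above for genes pushed the same way, therefore holds on the log2 scale. The genes below were pushed in opposite directions. MAP1B would be at 47.5 CPM on the linear scale and at 21.8 CPM on the log2 scale, against a measured mean of 17.3 CPM. For VAT1L the linear sum gives 56.2 CPM and the log2 sum 3.88 CPM, against 4.61 CPM measured. ANGPTL4 would be at 30.6 and 13.2 CPM, against 19.0 CPM measured, and TRIM51 at 11.5 and 3.00 CPM, against 3.15 CPM measured. These are values without a test.

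Several genes outside the classes carried large combined changes. C1R, a complement protease, stood at 14.0 to 15.2 CPM in wild-type DMSO and at 1.11 to 1.38 CPM with both, a change of -3.58 (adjusted p = 3.74e-11, edgeR). ADCY7, an adenylyl cyclase, fell by 2.09, from 24.6 to 25.4 CPM down to 5.60 to 6.05 CPM. ABCC2, a drug and bilirubin exporter, fell by 2.15. POLR2A, the largest subunit of RNA polymerase II, was listed at 0.298, 0.673 and 0.935 CPM in wild-type DMSO and at 2.86, 1.38 and 3.17 CPM with both. At these levels the change rests on few counts, and how well the listed values measure POLR2A was not tested. ITGB3, an integrin subunit, rose by 1.17, from 549 to 556 CPM up to 1181 to 1374 CPM.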
